A study of Mus musculus with 22 samples.

Results

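The SLC25 family holds the mitochondrial solute carriers, the proteins that move nucleotides, phosphate, cofactors, amino acids and metal ions across the inner mitochondrial membrane. RNA of 42 of its genes was measured in sorted marrow cells of the mouse, among 18193 genes named on the Affymetrix chips MOE430A and MOE430B. Members were all genes whose symbol is Slc25a followed by a number and that had a probe set naming that gene alone, apart from Slc25a37 and Slc25a38, which the rule sets aside. The members have 91 probe sets, of which chip A carries 63 and chip B the other 28, and 23 members have more than 1. Each gene is given by its probe set of highest mean signal. On that rule 40 members had a signal above 100 on at least 2 of 11 arrays and were tested, whereas Slc25a13 and Slc25a31 stayed under 100 on every array.

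The sort separated cells by CD45, the phosphatase carried by white blood cells, and by Sca1, an antigen of blood stem cells and of some mature lymphoid and myeloid cells. The CPGSE set has 2 samples sorted for +/+ cells, at a stated purity of 95 to 98%. Marrow and haematopoietic stem cells are named as its source, with a Moflo sorter and Qiagen RNA extraction. In the OGCsort set there are 3 samples each of +/+, +/- and -/- cells at a stated purity of 90%. Its array records give CD45 as the first sign and Sca1 as the second. The array records of the CPGSE set name no markers, and its signs were read here as those of OGCsort. On that reading the CPGSE samples are counted among the CD45+ groups. The OGCsort source is named as primary marrow, with RNeasy extraction and an unnamed sorter. Age, strain and sex of the mice are not given in the sources used here. Nothing in the labels ties samples to separate animals, so the p-values cover the spread of these samples alone, which may be technical.

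Carriers of this family are encoded in the nucleus, made in the cytosol and placed in the inner membrane by a dedicated import route. In developing red cells the mitochondrion takes in iron and glycine for haem synthesis, and carriers of this family supply both. In most other marrow cells the family is known mainly for exchanging ADP for ATP and for linking the citric acid cycle to the cytosol.

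The sort was visible in the arrays. Ptprc, which encodes CD45, had signals of 7213 to 14320 in the 8 CD45+ samples and of 149 to 1142 in the 3 -/- samples. The summed signal of 9 measured erythroid marker genes was 2923 to 8066 in CPGSE +/+, 2384 to 6108 in OGCsort +/+ and 1921 to 3976 in OGCsort +/- cells, against 216400 to 345100 in -/- cells. The summed signal of 5 genes of dividing cells was 4815 to 11470, 5451 to 6863 and 7645 to 12460 in the same 3 groups, against 37880 to 63140 in -/- cells. Markers of monocytes and dendritic cells summed to 156100 to 168000, 132400 to 164100 and 43450 to 79980, against 2232 to 7788 in -/- cells. Neutrophil granule genes summed to 11480 to 121300 in CPGSE +/+, 6441 to 31070 in OGCsort +/+ and 95850 to 391400 in +/- cells, against 2003 to 20050 in -/- cells, so the CPGSE samples differed widely and 1 overlapped with +/- cells. Stem and progenitor markers summed to 5243 to 5297 in CPGSE +/+ and 5632 to 6738 in OGCsort +/+ cells, beside B lymphoid sums of 19820 to 23670 and 22500 to 30870 in the same groups. Every comparison with -/- cells is therefore also one between samples of different cell make-up, whose part in the results was not tested. The ratio of 3' to 5' Gapdh signal on chip A, a sign of RNA quality, was 14.4 to 15.0 in CPGSE +/+, 9.14 to 24.8 in OGCsort +/+ and 13.8 to 19.6 in +/- samples, against 8.17 to 11.8 in -/- samples. It was above all -/- samples in each CD45+ sample except OGCsort +/+ sample 6. The chip A actin ratio was 4.56 to 4.77 in CPGSE +/+, 4.06 to 12.9 in OGCsort +/+ and 6.22 to 7.20 in +/- samples. In -/- samples it was 5.91 to 8.33, so only CPGSE +/+ lay clear of them, on the lower side. On chip B the range of the Gapdh ratio in -/- samples, 11.6 to 14.8, overlapped with that of every CD45+ group. The part of RNA quality in the results was not tested either. A lower signal can come from fewer cells of a type or from less RNA per cell, and these cannot be told apart in such bulk samples. Sample 4 of the -/- group stood apart, with a Ptprc signal of 1142 against 272 and 149 in the other two. For 9 of 11 samples the array of chip A was most like its own partner on chip B over the 100 shared probe sets. The exceptions were -/- sample 5 and OGCsort +/+ sample 5, which were closer to another sample of their own group.

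Against -/- cells, a minority of the carriers differed and most did not pass the test. In OGCsort +/+ cells 8 of 40 members were called higher and 5 lower (limma, adjusted p under 0.05), or 20% and 12.5%, where 12.9% and 9.03% of all 16990 tested genes were called higher and lower. In +/- cells 5 were called higher and 5 lower, 12.5% each, against 11% and 7.62% of all genes. In CPGSE +/+ cells 7 were called higher and 5 lower, 17.5% and 12.5%, against 13.1% and 9.38%. The shares of members thus lay near or somewhat above those of all genes. The median log2 fold change of the members was 0.21 in CPGSE +/+ (all genes -0.14), 0.14 in OGCsort +/+ (all genes -0.08) and 0.23 in +/- cells (all genes -0.03). The 3 comparisons share the same -/- samples and so are not independent of each other. Among 40 members the -/- group had the highest mean for 13 and the lowest for 21. Its 3 samples lay above all other samples for 6 of the 13. These counts were not made over all genes, so they do not show whether the members stand out.

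**Figure D1:**
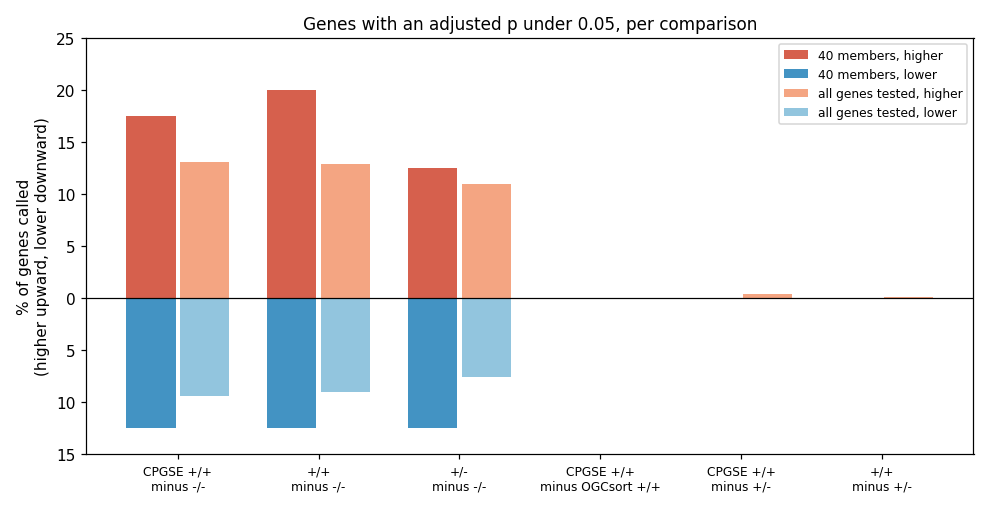
Percentage of genes with an adjusted p under 0.05 in each of 6 comparisons, with genes called higher above the zero line and genes called lower below it, for the 40 tested SLC25 members beside all 16990 tested genes. Calls were made against -/- cells, where members were called at 12.5 to 20%, and no member was called in the other 3 comparisons.

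**Figure D2:**
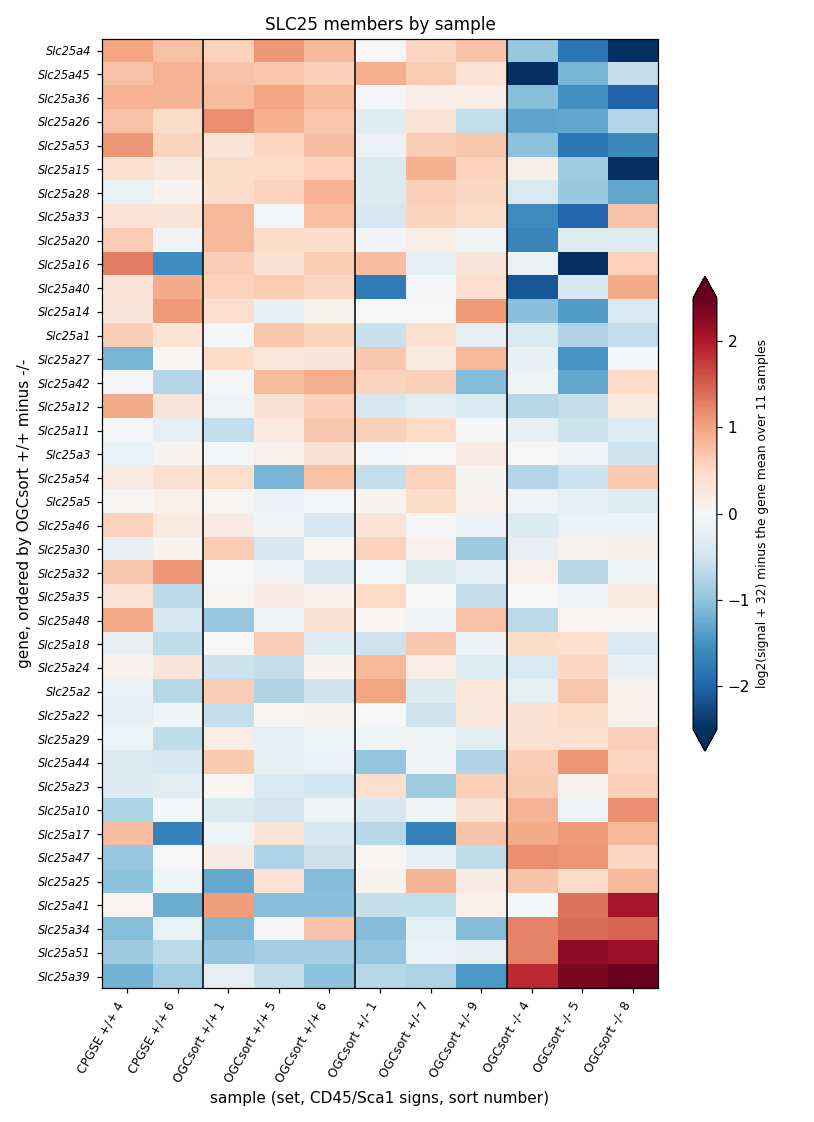
Heat map of the 40 tested members (rows, ordered by the OGCsort +/+ minus -/- log2 fold change) in 11 samples (columns). Colour is log2(signal + 32) minus the gene's mean over all samples. The 3 -/- columns on the right are blue at the top, from Slc25a4 down, and red at the bottom, at Slc25a34, Slc25a51 and Slc25a39.

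Among the carriers of iron and glutathione, Slc25a39 and Slc25a28 moved in opposite directions. Slc25a39, which imports glutathione into mitochondria, had signals of 2326 and 2917 in CPGSE +/+ cells, 4477, 3511 and 2613 in OGCsort +/+ cells and 3238, 3080 and 1951 in +/- cells, against 19550, 27490 and 33250 in -/- cells. The lowest -/- sample was above the highest of the other 8, and the groups did not overlap. The log2 fold change was -3.31 ± 0.31 (SE, adjusted p 5.65e-06) in CPGSE +/+, -2.91 ± 0.28 (1.12e-05) in OGCsort +/+ and -3.27 ± 0.28 (5.38e-06) in +/- cells. It was the lowest of all members in each of these comparisons. The erythroid and dividing-cell marker sums above were also higher in every -/- sample than in any other, and their part in this result was not tested. Of its 5 probe sets 4 were called lower in all 3 comparisons, and the other, with a mean signal of 125, was called in none. The probe set used here has a name ending in _x_at, a mark for probes that may also bind other transcripts, as do 2 of the others, and 1 of the 4 has another ending.

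Slc25a40, the close relative of Slc25a39 with the same role, did not pass the test. Its signals were 971 and 1479 in CPGSE +/+, 1138, 1211 and 1123 in OGCsort +/+ and 204, 742 and 1035 in +/- cells, against 152, 559 and 1479 in -/- cells. The -/- samples spanned the whole range of the others, and the log2 fold change was 1.17 ± 0.70 in CPGSE +/+ and 1.12 ± 0.65 in OGCsort +/+ cells (adjusted p 0.278 and 0.274). Without -/- sample 4 these were 0.38 and 0.33, and without -/- sample 8 they were 1.90 and 1.85, still uncalled. In +/- cells the difference was 0.08 ± 0.65, and it was -0.70 without -/- sample 4 and 0.81 without -/- sample 8. Slc25a28, or mitoferrin-2, the iron importer found in many tissues, had signals of 768 and 921 in CPGSE +/+, 1191, 1308 and 1596 in OGCsort +/+ and 677, 1324 and 1255 in +/- cells, against 652, 438 and 333 in -/- cells. All CD45+ samples were above all -/- samples, though +/- sample 1 was so by little. It rose by 1.50 ± 0.31 on the log2 scale in OGCsort +/+ (adjusted p 0.00442) and by 1.13 ± 0.31 in +/- cells (0.0268). The +/- call was lost without -/- sample 5 or 8 or +/- sample 7 or 9 (adjusted p 0.0801 to 0.117). The CPGSE +/+ difference of 0.83 ± 0.34 missed the threshold (0.106) and passed it without -/- sample 4 (1.08, 0.0336).

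Among the cofactor and pyrimidine nucleotide carriers, Slc25a51 fell and Slc25a36 rose in all 3 CD45+ groups, and Slc25a26 rose in both +/+ sets. Slc25a51, which imports NAD+, had signals of 1501 and 1782 in CPGSE +/+, 1449, 1549 and 1560 in OGCsort +/+ and 1421, 2548 and 2437 in +/- cells, against 6753, 13480 and 12600 in -/- cells. The -/- samples stood clear of all others, with sample 4 the lowest of the 3. The log2 fold change was -2.66 ± 0.32, -2.76 ± 0.29 and -2.32 ± 0.29 (adjusted p 4.96e-05, 2.38e-05 and 0.000125 for CPGSE +/+, OGCsort +/+ and +/-). All of its 3 probe sets were called lower in each comparison.

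Slc25a36, a carrier of pyrimidine nucleotides, had signals of 1744 and 1722 in CPGSE +/+, 1663, 1898 and 1662 in OGCsort +/+ and 919, 1071 and 1078 in +/- cells, against 437, 305 and 213 in -/- cells. The 3 levels were stepped, with +/- samples between the +/+ and -/- samples and no overlap. It rose by 2.38 ± 0.28, 2.39 ± 0.27 and 1.64 ± 0.27 on the log2 scale (adjusted p 4.38e-05, 4.17e-05 and 0.00107), but the +/+ minus +/- difference of 0.75 was not called. Its 2 other probe sets, of lower signal, were not called in any of these comparisons. Of these, 1 gave 0.72, 0.97 and 0.74 in CPGSE +/+, OGCsort +/+ and +/- cells. The other had the opposite sign in CPGSE +/+ cells.

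Slc25a26, which brings S-adenosylmethionine into mitochondria, had low signals of 198 and 157 in CPGSE +/+, 276, 223 and 192 in OGCsort +/+ and 80.2, 142 and 57.6 in +/- cells. The -/- samples had 23.2, 24.4 and 50.5, all under the threshold of 100. The fold was at least 1.76-fold higher in CPGSE +/+ (adjusted p 0.0195) and at least 2.28-fold higher in OGCsort +/+ cells (0.00717), counted against a signal of 100. The CPGSE call was lost without either of its samples (0.0953 to 0.159), and in +/- cells the difference was not called (0.219). The other probe set of Slc25a26 gave 0.98, 1.42 and 1.38 in CPGSE +/+, OGCsort +/+ and +/- cells and was not called. The remaining members of this group, Slc25a33 for pyrimidine nucleotides and Slc25a32 for folate and flavin, were not called. Of the 5 tested, 2 rose and 1 fell in both +/+ sets, and 1 rose and 1 fell in +/- cells.

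**Figure D3:**
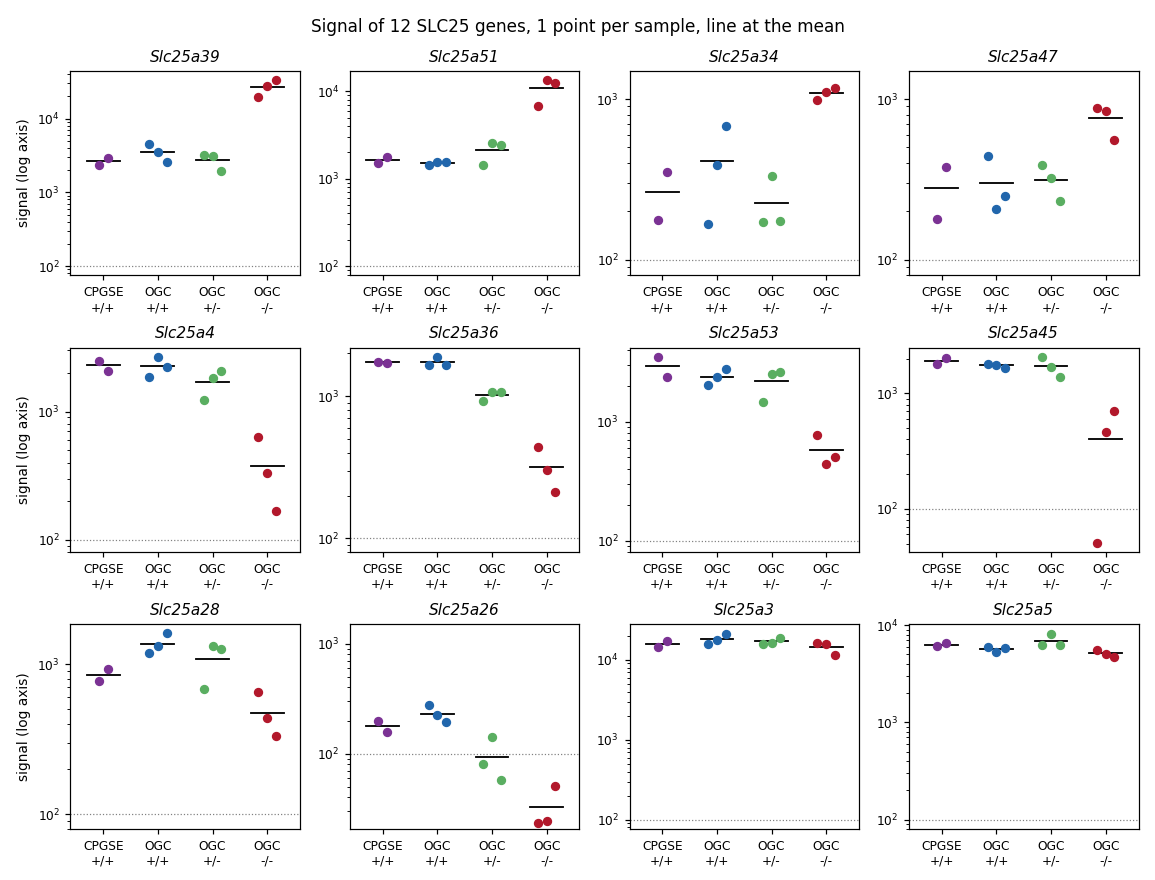
Signal on a log axis of 12 SLC25 genes, with 1 point per sample, grouped as CPGSE +/+ (2 samples), OGCsort +/+, +/- and -/- (3 samples each). Black lines are group means and the dotted line is a signal of 100. The -/- points are above all others for Slc25a39, Slc25a51, Slc25a34 and Slc25a47 and below all others for Slc25a4, Slc25a36, Slc25a53, Slc25a45, Slc25a28 and Slc25a26, while Slc25a3 and Slc25a5 differ little.

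Of the adenine nucleotide translocases, which exchange ADP for ATP, Slc25a4 was called and Slc25a5 was not; the difference between them was not tested. Slc25a4, the form best known from heart and muscle, had signals of 2490 and 2090 in CPGSE +/+, 1858, 2677 and 2208 in OGCsort +/+ and 1230, 1828 and 2074 in +/- cells, against 629, 335 and 167 in -/- cells. No CD45+ sample was as low as any -/- sample. It rose by 2.67 ± 0.40, 2.63 ± 0.37 and 2.23 ± 0.37 on the log2 scale (adjusted p 0.000311, 0.000244 and 0.00111), the highest value of any member in both +/+ sets. Of its 4 probe sets 3 were called higher in all 3 comparisons. The other, with a mean signal of 63.2, gave 0.17 in OGCsort +/+, 0.33 in +/- and -0.73 in CPGSE +/+ cells and was called in none.

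Slc25a5, the form known from dividing and many other cells, had 6074 and 6524 in CPGSE +/+, 6039, 5319 and 5834 in OGCsort +/+ and 6237, 8176 and 6321 in +/- cells, against 5598, 5088 and 4721 in -/- cells. OGCsort +/+ sample 5 lay within the -/- range. Its differences of 0.30 ± 0.22, 0.16 ± 0.21 and 0.42 ± 0.21 were not called (adjusted p 0.395, 0.666 and 0.222). Of its 8 probe sets 1 was called, higher by 0.87 in OGCsort +/+ cells (adjusted p 0.0415). Of the 8, 6 have the _x_at ending, so they may also bind related transcripts. Slc25a3, the phosphate carrier, had group means of 15860 ± 1768 (SD, n = 2), 18310 ± 2692 and 17050 ± 1597, against 14510 ± 2567 in -/- cells (n = 3 each). By sample it had 14610 and 17110 in CPGSE +/+, 15860, 17880 and 21200 in OGCsort +/+ and 15900, 16370 and 18870 in +/- cells, against 16330, 15620 and 11570 in -/- cells, so every group overlapped with -/-. Its differences of 0.14 ± 0.25, 0.34 ± 0.24 and 0.24 ± 0.24 were not called (adjusted p 0.759, 0.375 and 0.573).

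Slc25a25, one of the calcium-regulated carriers of ATP-Mg and phosphate, was the only other called member of this group of 11. Its signals were 238, 809 and 275 in OGCsort +/+ cells against 1046, 878 and 1108 in -/- cells, and it fell by 1.33 on the log2 scale (SE 0.43, adjusted p 0.0469). The samples did not overlap, but OGCsort +/+ sample 5 was close to the -/- samples. CPGSE +/+ cells had 289 and 576, and +/- cells 664, 1146 and 718, with differences of -1.23 and -0.29 that were not called. The OGCsort +/+ call was lost without any one -/- sample and without +/+ sample 1 or 6 (adjusted p 0.0786 to 0.17). The 2 other probe sets of Slc25a25 gave -0.55 and -0.47 in OGCsort +/+ cells and were not called.

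The promoters of 4 of these genes are printed to show what lies upstream of the member that fell most in the CD45+ groups and of 3 that rose in at least 2 of them. Each runs from 250 bases before to 50 after the transcript start, 5′ to 3′, from RefSeq on GRCm38.p6. Each lies on the minus strand: Slc25a39 at chr11:102407468-102407767, Slc25a4 at chr8:46211013-46211312, Slc25a36 at chr9:97110992-97111291 and Slc25a28 at chr19:43674832-43675131. Capitals mark matches, on either strand, to a GATA site, to the E-box (its letters are CACGTG) and to the NRF1 core (its letters are GCGCATGC). A GATA site was taken as A or T followed by GATA and a closing A or G, that is AGATAA with its variants in the first and last letter. No 2 matches overlapped in any member's promoter.
Slc25a39: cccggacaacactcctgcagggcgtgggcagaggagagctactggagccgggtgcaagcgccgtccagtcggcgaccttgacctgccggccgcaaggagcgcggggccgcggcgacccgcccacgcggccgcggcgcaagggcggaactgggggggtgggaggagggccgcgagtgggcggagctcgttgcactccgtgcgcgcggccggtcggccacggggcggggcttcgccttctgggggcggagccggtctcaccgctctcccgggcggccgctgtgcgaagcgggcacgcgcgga
Slc25a4: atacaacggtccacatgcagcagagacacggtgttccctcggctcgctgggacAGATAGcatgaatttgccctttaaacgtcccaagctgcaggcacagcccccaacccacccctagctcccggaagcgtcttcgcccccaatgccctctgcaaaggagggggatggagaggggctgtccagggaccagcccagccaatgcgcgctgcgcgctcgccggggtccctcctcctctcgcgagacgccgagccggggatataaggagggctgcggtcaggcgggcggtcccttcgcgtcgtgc
Slc25a36: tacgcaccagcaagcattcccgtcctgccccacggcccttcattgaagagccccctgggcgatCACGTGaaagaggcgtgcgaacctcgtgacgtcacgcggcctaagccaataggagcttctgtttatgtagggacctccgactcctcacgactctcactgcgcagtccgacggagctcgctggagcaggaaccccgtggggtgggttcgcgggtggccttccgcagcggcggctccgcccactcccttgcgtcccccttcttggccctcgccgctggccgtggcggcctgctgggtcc
Slc25a28: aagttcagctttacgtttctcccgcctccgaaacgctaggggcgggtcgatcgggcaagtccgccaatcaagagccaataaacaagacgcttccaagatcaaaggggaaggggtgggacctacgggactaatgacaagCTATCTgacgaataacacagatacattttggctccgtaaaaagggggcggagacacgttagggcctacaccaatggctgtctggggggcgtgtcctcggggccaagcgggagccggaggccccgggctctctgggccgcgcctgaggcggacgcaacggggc
The Slc25a39 promoter is 77.3% G or C with 45 CpG pairs and has no match. Slc25a4 has the GATA letters 197 bases and Slc25a28 112 bases before the start, the second on the opposite strand, and Slc25a36 has the E-box 187 bases before it. The printed genes are a choice from the called members, and each riser among them has a match. The promoter of Slc25a45, called higher in every CD45+ group, has no match and is not printed.

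Promoters were found for 33 of the 42 members, 42 promoters in all, and for 13 of the 16 members called in any comparison. GATA letters were in 8 of the 42 promoters (19%), against 29.8% of 32851 promoters in the table. They were in 0 of 7 promoters of 5 members called lower and in 3 of 11 promoters of 8 members called higher than in -/- cells. The E-box was in 8 of 42 promoters (19%) against 7.15% of all, in 0 of the 7 and in 4 of the 11, those of Slc25a1, Slc25a14 and Slc25a36. The 2 matching promoters of Slc25a14 overlap and hold the same E-box, which is counted in both. The GATA letters of the overlapping Slc25a23 promoters are likewise counted in both. The NRF1 core was in 2 of 42 (4.76%) against 2.71% of all, and in none of the called members. A match of letters is a description and was not tested as a binding site, and its absence says only that these letters are not in this window.

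Among carriers of carboxylates and acylcarnitine, 2 of 4 tested members rose in OGCsort +/+ cells, 1 in CPGSE +/+ cells and none in +/- cells. Slc25a1, the citrate carrier, had 3051 and 2523 in CPGSE +/+ and 1914, 3191 and 2944 in OGCsort +/+ cells, against 1511, 1160 and 1296 in -/- cells. These samples did not overlap, and the log2 fold changes were 1.06 ± 0.33 and 0.98 ± 0.31 (adjusted p 0.0372 and 0.0415). The +/- samples, at 1345, 2608 and 1699, overlapped with -/- (0.45, adjusted p 0.388). Slc25a20, which exchanges carnitine for acylcarnitine, had 1007, 780 and 785 in OGCsort +/+ cells against 158, 450 and 448 in -/- cells, a rise of 1.32 ± 0.35 (adjusted p 0.0192). CPGSE +/+ cells had 894 and 526 and +/- cells 531, 643 and 517, all above the -/- samples, with differences of 1.03 and 0.75 that were not called. Its second probe set gave 0.15 in OGCsort +/+ cells and was not called. The Slc25a20 call was lost without any one of the 3 OGCsort +/+ samples (adjusted p 0.0501 to 0.0745). Slc25a1 lost its OGCsort +/+ call without -/- sample 5 or 8 or +/+ sample 5 or 6 (0.0798 to 0.16) and its CPGSE +/+ call without either CPGSE sample or -/- sample 5 or 8 (0.0629 to 0.231).

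No amino acid carrier was called in OGCsort +/+ cells, and 1 of 7 tested was called in each of the other 2 groups. Slc25a44, a carrier of branched-chain amino acids in mouse brown fat, had 164, 335 and 198 in +/- cells against 557, 802 and 531 in -/- cells. The groups did not overlap and the log2 fold change was -1.35 ± 0.36 (adjusted p 0.0214), but its 2 other probe sets gave 0.01 and -0.27 and were not called. The call was lost without -/- sample 5 or +/- sample 1 or 9 (0.068 to 0.0954). Slc25a29, a carrier of basic amino acids, had 545 and 372 in CPGSE +/+ cells, against 785, 806 and 910 in -/- cells, a change of -0.84 ± 0.27 (adjusted p 0.0483). That call was lost without any one of the 5 samples (0.0554 to 0.377). Its OGCsort +/+ and +/- samples, at 486 to 680, were also all below the -/- samples, without a call (-0.51 and -0.63). Another probe set of Slc25a29 was called lower by more, at -2.61 in CPGSE +/+ and -2.09 in OGCsort +/+ cells (adjusted p 0.0114 and 0.0255).

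For 2 other amino acid carriers the probe set used was not called in OGCsort +/+ cells but another was. The direction was opposite for Slc25a15 and the same for Slc25a12. Slc25a15, the ornithine carrier of the urea cycle, had 377, 388 and 413 in OGCsort +/+ cells against 300, 128 and 17.4 in -/- cells by the probe set used, a difference of 1.62 ± 0.57 that was not called (adjusted p 0.069). It was called with array weights (1.77, 0.0196), with sort number as a random block (1.66, 0.0357) and without -/- sample 4 (2.26, 0.00739), and was 0.88 without -/- sample 8. Its other probe set was called in the opposite direction, at -1.61 (adjusted p 0.0322), so no direction is given for this gene. Slc25a12, an aspartate and glutamate carrier, was not called by the probe set used in OGCsort +/+ cells (0.66, adjusted p 0.158), except without -/- sample 8 (0.96, 0.0388). Another of its probe sets was called higher in OGCsort +/+ (2.19, 0.0187) and CPGSE +/+ cells (2.58, 0.00886).

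Of 3 relatives of the uncoupling proteins, Slc25a14 alone was called. It had 250 and 444 in CPGSE +/+ cells, against 77.7, 54.1 and 142 in -/- cells, and rose by 1.63 ± 0.47 on the log2 scale (adjusted p 0.027). OGCsort +/+ samples at 275, 168 and 208 and +/- samples at 197, 195 and 443 were also all above the -/- samples, with differences of 1.06 and 1.30 that were not called (0.129 and 0.0699). The call was lost without either CPGSE sample or -/- sample 5 (0.062 to 0.265). Whether the effect differs between these groups was tested only by the direct comparisons, in which no member was called.

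Carriers with no substrate assigned here, with Slc25a46, a protein of mitochondrial shape, made up 7 tested members, of which 2 rose and 2 fell in each comparison with -/- cells. Slc25a53 had 3501 and 2384 in CPGSE +/+, 2010, 2356 and 2769 in OGCsort +/+ and 1448, 2494 and 2587 in +/- cells, against 778, 437 and 503 in -/- cells. It rose by 2.31 ± 0.32, 2.02 ± 0.29 and 1.86 ± 0.29 (adjusted p 0.000159, 0.000263 and 0.000636), with no overlap. Its other probe set, of lower signal, gave 0.97, 1.43 and 1.17 and was not called. Slc25a45 had 1809 and 2011 in CPGSE +/+, 1807, 1772 and 1650 in OGCsort +/+ and 2068, 1693 and 1389 in +/- cells, against 50.6, 462 and 700 in -/- cells. It rose by 2.64 ± 0.62, 2.52 ± 0.57 and 2.48 ± 0.57 (adjusted p 0.00821, 0.00744 and 0.00944). The size depended on -/- samples 4 and 8: without sample 4 the log2 fold changes were 1.69, 1.56 and 1.52, still called (0.000377, 0.000685 and 0.00093), and without -/- sample 8 they were 3.26, 3.13 and 3.10. The CPGSE +/+ call was lost without either CPGSE sample (0.0552 to 0.0679).

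Slc25a34 had 176 and 353 in CPGSE +/+, 166, 388 and 676 in OGCsort +/+ and 173, 333 and 173 in +/- cells, against 986, 1105 and 1166 in -/- cells. No other sample reached the -/- level, and OGCsort +/+ sample 6 came nearest. The changes were -1.98 ± 0.56, -1.52 ± 0.49 and -2.17 ± 0.49 (adjusted p 0.0222, 0.0453 and 0.00735). With wash run as a block they were -2.49 in OGCsort +/+ cells (adjusted p 0.0254) and -3.49 in +/- cells, where the call was lost (0.0672). Slc25a47, known as a carrier of liver mitochondria, had 179 and 380 in CPGSE +/+, 440, 208 and 250 in OGCsort +/+ and 388, 324 and 232 in +/- cells, against 882, 848 and 553 in -/- cells. Its changes were -1.40 ± 0.40, -1.29 ± 0.35 and -1.19 ± 0.35 (adjusted p 0.0272, 0.0198 and 0.0346), with no overlap. Both fell in all 3 comparisons, each by a single probe set. Slc25a34 lost its OGCsort +/+ call without any one sample other than +/+ 6 (0.0718 to 0.179) and without CPGSE sample 4 or -/- sample 5 or 8 in CPGSE +/+ cells (0.0559 to 0.209). Slc25a47 lost its call without -/- sample 4 or 5 in each comparison, and also without CPGSE sample 4 (adjusted p 0.0604 to 0.296 over these), +/+ sample 5 or 6 (0.0545 to 0.0926) or +/- sample 7 or 9 (0.0812 to 0.125).

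**Figure D4:**
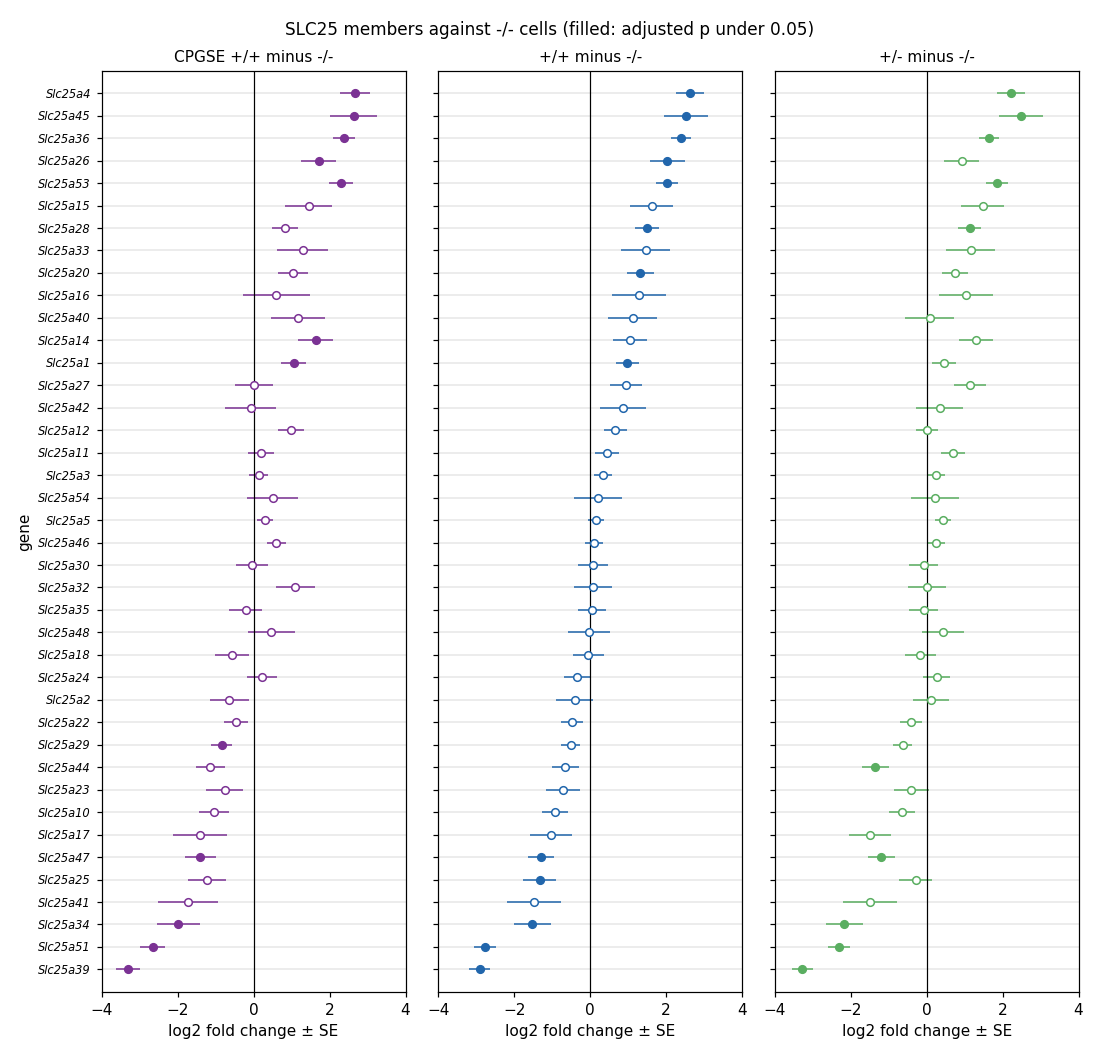
Log2 fold change with its SE for the 40 tested members in CPGSE +/+, OGCsort +/+ and +/- cells, each against the same 3 -/- samples, in the order of the middle panel. Filled points have an adjusted p under 0.05. Slc25a39 is the lowest point in every panel, and Slc25a4 or Slc25a45 the highest.

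Side by side, 5 members were called higher in both OGCsort +/+ and +/- cells (Slc25a4, Slc25a28, Slc25a36, Slc25a45 and Slc25a53) and 4 lower in both (Slc25a34, Slc25a39, Slc25a47 and Slc25a51), and 26 were called in neither. Both comparisons use the same -/- samples, so shared calls can arise for any genes. Shared calls were not counted over all genes, so they do not show whether the members stand out. The 24 members called in no comparison had log2 fold changes of -1.73 to 1.45 in CPGSE +/+, -1.48 to 1.62 in OGCsort +/+ and -1.49 to 1.47 in +/- cells. Of these 24, 17, 18 and 18 lay within 1 log2 unit of 0. Some wide values went with uneven -/- samples: Slc25a33 had 20.4, 7.32 and 225 in -/- cells and was called in OGCsort +/+ cells without -/- sample 8 (2.30, adjusted p 0.0129, against 1.46 with it), and Slc25a41, a relative of the ATP-Mg carriers, had 81.2, 267 and 453.

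Array runs, inferred from the recorded hybridization times and called wash runs here, followed the groups in part. On chip A wash run 2 held OGCsort +/+ samples 1 and 5 with the 3 -/- samples. Within it 7 of 26 tested members were called, 5 higher and 2 lower, where all samples gave 10. There Slc25a4, Slc25a36 and Slc25a53 differed by 2.64, 2.42 and 1.91, and Slc25a39 and Slc25a51 by -2.71 and -2.78. On chip B, where a run was counted per wash station, the run with both groups had 1 +/+ sample, and 0 of 14 members were called by limma (2 at an unadjusted p under 0.05), where all samples gave 3. Of those 3, the change within the run was -2.49 for Slc25a34 and -1.94 for Slc25a25, against -1.52 and -1.33 with all samples, and 0.53 for Slc25a1, against 0.98. On chip A no run, and on chip B no run at 1 wash station, held both +/- and -/- samples. With wash run as a block that comparison rested on +/+ samples as a bridge and called 1 member, Slc25a39 (-2.67, adjusted p 0.022), in place of 10, although the differences of the other 9 kept their direction. Without and with the block, those of Slc25a4 were 2.23 and 2.24, of Slc25a36 1.64 and 1.73, of Slc25a45 2.48 and 2.59, of Slc25a51 -2.32 and -2.38 and of Slc25a34 -2.17 and -3.49. Those that came out smaller were Slc25a39 (-3.27 and -2.67), Slc25a53 (1.86 and 1.52), Slc25a28 (1.13 and 0.79), Slc25a44 (-1.35 and -0.98) and Slc25a47 (-1.19 and -0.94). The same block left 9 of 13 calls for OGCsort +/+, and the lost ones were Slc25a1 (0.53), Slc25a20 (1.38), Slc25a25 (-1.94) and Slc25a47 (-1.21). The CPGSE arrays were in runs of their own, so set and run cannot be told apart there. Calls within runs and with the block were counted for members only. They do not show whether the members lose calls more or less often than other genes.

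Between the CD45+ groups no member was called by limma. Of all genes 0.106% were called higher and 0.0589% lower in +/+ than in +/- OGCsort cells. At an unadjusted p under 0.05 there were 4 of 40 members (10%), against 7.76% of all genes. The widest values were 1.11 for Slc25a26 and -1.05 for Slc25a25, and 37 of 40 lay within 1 log2 unit. Within the runs that held both groups, 0 of 26 members on chip A and 0 of 14 on chip B were called, with 0 and 1 at an unadjusted p under 0.05. All genes were not counted within these runs. For CPGSE +/+ against +/- cells, 0.347% and 0.0942% of all genes were called, with 4 members at an unadjusted p under 0.05 (10%, all genes 11.8%). The values there ran from -1.14 for Slc25a27 to 1.09 for Slc25a32. For CPGSE +/+ against OGCsort +/+, 0% of all genes were called higher and 0% lower, and no member reached an unadjusted p under 0.05, against 6.45% of all genes. That comparison also sets one set against the other. The values ran from -0.94 for Slc25a27 to 1.03 for Slc25a32, whose 2 CPGSE samples at 516 and 701 were above all others. A missed threshold does not show that the groups are alike.

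Other genes of mitochondrial transport and metabolism, taken from lists, moved as follows against -/- cells. Of 16 tested genes for other transport across the mitochondrial membranes, 1 fell in each group: Abcb10, an inner-membrane transporter needed for haem synthesis in red cell precursors, with means of 346, 216 and 260 in CPGSE +/+, OGCsort +/+ and +/- cells, against 4906 in -/- cells. Its log2 fold changes were -3.73, -4.35 and -4.18 (adjusted p 2.06e-05, 2.88e-06 and 4.9e-06), and 1 gene, Vdac2, a channel of the outer membrane, rose in CPGSE +/+ cells by 0.77. Of 13 genes that import carriers, Tomm20, an import receptor of the outer membrane, rose in all 3 groups, by 1.83, 1.56 and 0.96. Timm8b, a chaperone between the membranes, rose by 2.19 in CPGSE +/+ cells, and no gene of this list fell.

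Of 17 genes of the tricarboxylic acid cycle, 4 rose in each +/+ set and 3 in +/- cells, with 1 falling in each +/+ set and none in +/- cells. The one that fell was Ogdh, of the oxoglutarate dehydrogenase complex, named after its values were seen (-0.92 and -0.81 in CPGSE and OGCsort +/+ cells). Those that rose were the succinyl-CoA synthetase subunits Suclg1 (1.52, 1.50 and 1.12 in CPGSE +/+, OGCsort +/+ and +/-), Sucla2 (1.69, 1.00 and 1.37) and, in the +/+ sets, Suclg2 (1.90 and 1.31), with the fumarase Fh1 (1.84, 1.05 and 0.92). Of 6 genes of mitochondrial one-carbon metabolism, Mthfd2, a folate enzyme, fell by 1.63, 1.76 and 1.30, and Gcsh, of the glycine cleavage system, rose by 1.69, 1.71 and 1.48. Of 12 regulators of mitochondrial biogenesis, Myc rose in the +/+ sets (1.41 and 1.34), Polrmt, the mitochondrial RNA polymerase, fell in OGCsort +/+ cells (-0.81), and Pprc1 fell (-1.54) and Esrra rose (1.17) in +/- cells. Of 3 tested carrier-fold genes under other names, Mtch1 rose in OGCsort +/+ (1.52) and +/- cells (1.86). None of these lists had a call between CD45+ groups.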

How the data were processed

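RNA was measured on 22 arrays, MOE430A and MOE430B for each of 11 samples. The authors deposited 1 linear intensity for each probe set, from MAS5 per the submitters' processing notes, with a version not given in the sources used here. The deposited intensity had nearly the same trimmed mean on every array, so the authors had scaled each array by 1 factor. The number of arrays limits the precision. The other files are records of array runs, per the file headers. What is called a wash run here was inferred from gaps of over 1 hour in the recorded hybridization times. On chip B it was also split by the recorded station. The records do not name such runs.

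Arrays were brought to a common trimmed mean of 500 (2% off each end), and log2(signal + 32) was used. Probe sets needed a signal over 100 on at least 2 of 11 arrays, controls were dropped, and for the 100 probe sets shared by the chips only chip A was read, which kept 40405. The probe tables name 1 gene for 34945 probe sets, several for 932 and none for 9160. The tests were run with limma 3.58.1 under R 4.3.3 (lmFit, eBayes with a trend), each chip alone, with Benjamini-Hochberg adjustment over both chips and a threshold of 0.05. OGCsort comparisons used 9 samples and CPGSE ones 11. Fold changes are on the log2(signal + 32) scale and understate those of dim genes. A bound is counted against a signal of 100 where every array of a group was below it. The scripts were tested on simulated data.

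Members and lists were chosen with earlier results of these data known. Values by sample are given for called members, at most 8 rises and 8 falls per comparison, and for Slc25a3, Slc25a4, Slc25a5, Slc25a28, Slc25a39 and Slc25a40. Other genes come from lists, at most 4 each by adjusted p, with Ptprc as a check of the sort. Members named in other ways were chosen after their values were seen. Marker sums and motif searches were made over lists written by hand. Protein sequences were not used here. Alternatives covered the pseudocount, filter, scaling, eBayes settings, array weights, samples in the fit, adjustment within a chip, probe set rule, sort number and wash run as blocks, runs by themselves, each sample left out, and a minimum fold.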

Additional observations from a re-analysis of the deposited data

How the results depend on the processing

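Of the 35 called differences of single members, all but 1 kept their direction under every alternative tried, and the exception was Slc25a4 in CPGSE +/+ cells, which turned to -0.73 with a dim probe set of 63.2 mean signal. Calls against -/- kept under all alternatives were 5 of 13 in OGCsort +/+, 1 of 10 in +/- and 3 of 12 in CPGSE +/+. For none of these did the probe set rule pick another probe set, so that alternative did not test them. In OGCsort +/+ cells Slc25a4 and Slc25a36 lost their calls by that rule alone. Slc25a26, 1 of the 5, was not tested under the filter of a signal over 200 on 3 arrays. Among all other tested probe sets of called members, the sign matched for 16 of 16 in OGCsort +/+, 13 of 14 in +/- and 14 of 16 in CPGSE +/+ cells. Slc25a39 was called throughout. Leaving out 1 sample at a time gave 9 to 12 called members in OGCsort +/+, 7 to 10 in +/- and 5 to 12 in CPGSE +/+ cells. The lowest CPGSE counts were 5 without CPGSE sample 4 and 7 without sample 6, since 1 sample then stands for the group and is assumed to vary like the others. Within the chip B run 0 members were called in place of 3, and with the wash run as a block 1 in place of 10 in +/- cells. The called differences kept their direction in both, and a lost call there does not show a lost difference. Counts of calls under the alternatives were made for members only, not over all genes. Within the chip B run Slc25a34 was 5.63-fold and Slc25a25 3.84-fold lower, against 2.87-fold and 2.52-fold with all samples. Slc25a1 was 1.45-fold higher within it, against 1.97-fold. That run has 1 OGCsort +/+ sample, whose signal was the lowest of its group for each of these genes. Of 21 uncalled differences followed one by one, 4 gained a call under some alternative, those of Slc25a28, Slc25a12, Slc25a15 and Slc25a33. These 21 were chosen and are not all uncalled differences, and the sign changes below are also from them alone. Other members gained calls too: with array weights the count was 16 in CPGSE +/+ cells, against 12, and 11 in +/- cells, against 10. Uncalled values that changed sign were Slc25a5 in OGCsort +/+ cells (-0.15, another probe set), Slc25a3 in +/- (-0.09, wash run block) and CPGSE +/+ cells (-0.01, without -/- sample 8, to 0.25, without CPGSE sample 4), and Slc25a40 in +/- cells (-0.70, -0.13 and -0.36, leaving out -/- 4, +/- 7 or +/- 9, and up to 0.81 without -/- 8). The cause of these changes was not tested. No paired analysis was possible because the groups share fewer than 2 sort numbers. Sort number as a random block gave 14, 10 and 15 calls in OGCsort +/+, +/- and CPGSE +/+ cells. The 15 treats CPGSE and OGCsort samples of the same number as 1 sort, which the labels do not state. Dim members near a signal of 100 limit what can be seen.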
